A study of Homo sapiens with 12 samples.

Results

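Ubiquitin-specific proteases (USPs) are the largest family of deubiquitinating enzymes in human cells, and the genes examined here are the USP genes other than USP7 in K562 cells treated with the USP7 inhibitor FT671. They were taken as the protein-coding genes of GENCODE release 44 whose symbol begins with USP and a digit, without USP7. This gave 77 of the 60609 genes listed in the count files. Of these, 44 had enough reads to be tested for a difference between treatments and 33 did not. The symbol rule brought in USP6NL, a GTPase-activating protein named for its likeness to the non-catalytic part of USP6 and no deubiquitinase itself. It left out USP-fold enzymes with other symbols, such as CYLD.

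K562 is an established line of leukemic cells derived from a blast crisis of chronic myeloid leukemia. The RNA-seq libraries comprised 3 cultures that received the solvent DMSO and 3 that received 10 μM FT671, each for 48 h. The cells were otherwise unmodified, and all 6 libraries came from this 1 line. The samples carry only replicate numbers, and the study speaks of independent experiments. The histone mark ChIP samples of the series were not analysed here.

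USPs cleave ubiquitin from proteins with a cysteine protease domain shaped like an open hand, around which each member carries its own targeting domains. By removing ubiquitin they keep substrates from the proteasome, end signals on chromatin and membranes, or recycle ubiquitin. USP7 itself acts on MDM2 and p53 and belongs to PRC1.1, a variant of the Polycomb repressive complexes. USP47 and USP40 are the family members generally placed nearest to it. Whether such paralogs were raised in the presence of the inhibitor is the question asked of these counts. RNA levels say nothing of the amount of protein or of enzyme activity.

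Total counts ranged from 4555220 to 14250500 per library, so that 3 counts, taken as the smallest detectable level, equal 0.208 to 0.666 CPM, the counts of a gene scaled to a common library total. This floor covers counting error only, since the reads carry no molecular identifiers and copies of 1 molecule can be counted more than once. The scaling used the trimmed mean of M values (TMM). Erythroid regulators marked the cells as labelled, with GATA1 at 230 to 324 CPM and TAL1 at 68.7 to 143 CPM. The T cell gene CD3E was at 0 to 0.541 CPM. It lay at or under the floor of each library except FT671 replicate 3, with 0.3575 CPM beside a floor of 0.2681 CPM. The epithelial genes EPCAM and KRT18 were not absent, at 58.6 to 86.6 CPM and 138 to 191 CPM. In bulk samples, fewer cells of a type and less RNA per cell cannot be told apart. USP7 RNA was at 119, 107 and 131 CPM in DMSO replicates 1, 2 and 3 and at 29.3, 34.1 and 35.8 CPM in the FT671 replicates. It fell by 1.82 on the log2 scale (SE 0.104, edgeR adjusted p = 2.66e-08), although the compound acts on the USP7 protein.

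Among the 44 tested USP genes, more fell than rose after FT671. By edgeR's quasi-likelihood test at an adjusted p of 0.05, 18 were lower, or 40.9%, beside 26.5% of all 13895 genes tested. Only 5 were higher, or 11.4%, beside 23.6% of all genes tested. The remaining 21 did not pass. All members are protein-coding, and among the 11149 protein-coding genes tested 29.1% were lower and 24.7% higher. At the stricter threshold of 1e-05, 4 passed, or 9.09% beside 5.92% of all genes, and all 4 were lower: USP9X, USP22, USP19 and USP6NL. The log2 fold change was below 0 in 29 of the 44 genes, with a median of -0.25 beside -0.010 over all genes tested. The count at 1e-05 moved between 0 and 10 when single libraries were left out, and it was 0 without FT671 replicate 3, 1 without DMSO replicate 1, FT671 replicate 1 or FT671 replicate 2, 2 without DMSO replicate 2 and 10 without DMSO replicate 3.

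**Figure D1:**
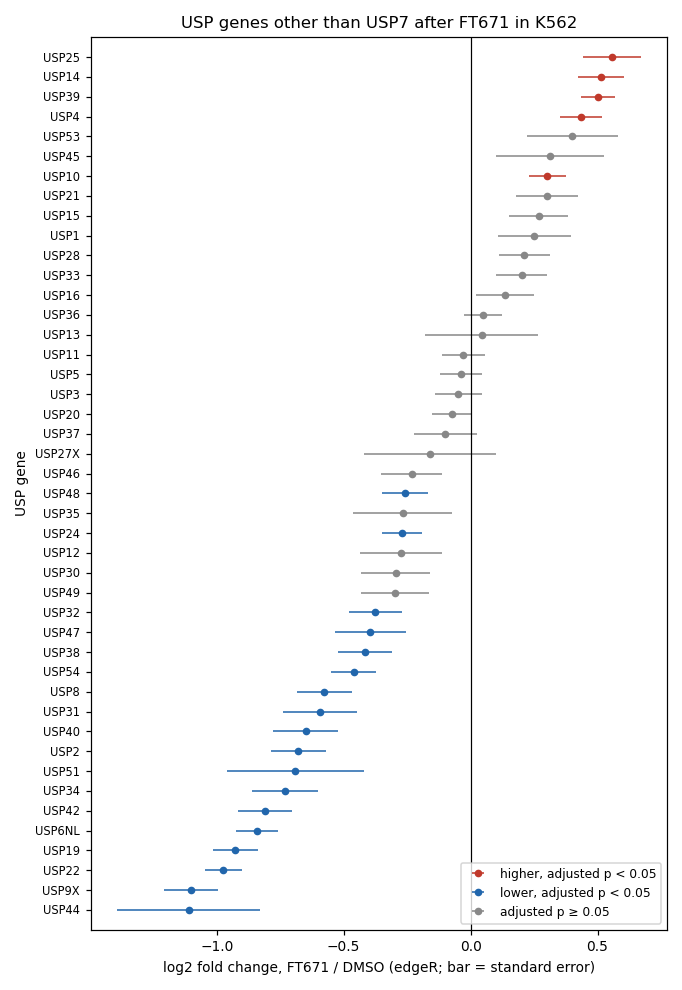
The log2 fold change of FT671 over DMSO is plotted for each of the 44 tested USP genes, with its standard error from edgeR as a bar and genes sorted by size. Red marks the 5 genes higher at an adjusted p of 0.05, blue the 18 that were lower and grey the 21 that did not pass. The values run from -1.11 for USP44 to 0.56 for USP25.

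The single libraries were also compared. In 21 members every FT671 library lay below every DMSO library, where 30.3% of all genes tested did so, and in 7 members every FT671 library lay above, where 26.8% of all genes did. Summed over all 77 genes, USP transcripts took 2902, 2836 and 3252 CPM in the DMSO libraries and 2648, 2706 and 2693 CPM in the FT671 libraries. The groups did not overlap in this sum, with means of 2997 ± 224 CPM and 2682 ± 30.7 CPM (SD, n = 3).

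No tested member rose by more than 1 on the log2 scale. Over all genes tested 3.94% did, a share at which few of 44 genes would do so. The highest upper bound of a 95% interval over the 44 genes was 0.80, for USP25. In 34 members the upper bound lay under 0.5 and in 20 it lay under 0. Among the 21 members that did not pass, the highest upper bound was 0.79, for USP53, and a rise of that size in USP53 lies within its interval.

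Positions are those of hg38 and GENCODE 44. USP47 (ENSG00000170242.18) lies at chr11:11841423-11961887 (plus strand) and USP40 (ENSG00000085982.13) at chr2:233475526-233566782 (minus strand). USP47, which acts in base excision repair and has the sequence most like that of USP7, was at 69.9, 60.6 and 97.6 CPM in DMSO and at 56.6, 59.7 and 55.0 CPM in FT671. Every FT671 library lay below the DMSO libraries, but FT671 replicate 2 was close to DMSO replicate 2. The mean went from 76.0 ± 19.3 to 57.1 ± 2.41 CPM (SD, n = 3). The log2 fold change was -0.39 (SE 0.140, 95% interval -0.69 to -0.095, edgeR adjusted p = 0.0297). The size depended on DMSO replicate 3, the highest library, and was -0.21 without it (adjusted p = 0.0366). The call was lost without FT671 replicate 1, 2 or 3 (adjusted p = 0.0745, 0.0563 and 0.114) and with a correction for gene length (-0.25, adjusted p = 0.0775). USP47 shares 5681 exon bases, 41.4% of its exon length, with DKK3 on the opposite strand, and DKK3 was itself lower by edgeR (log2 fold change -0.74, adjusted p = 0.00633) from 17.6 CPM in DMSO. The strand setting of the counting is not given in the sources used here, and the part of DKK3 reads in the USP47 value was not tested.

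USP40 was at 21.5, 18.5 and 21.4 CPM in DMSO and at 14.2, 12.6 and 12.6 CPM in FT671, without overlap. It fell by 0.65 on the log2 scale (SE 0.128, edgeR adjusted p = 8.31e-04) and kept its call under each of the 18 alternative settings tried. Neither USP47 nor USP40 thus had a higher RNA level after FT671 in these libraries.

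Likeness to USP7 was measured for every member by local alignment of 1 translated GENCODE protein per gene with USP7. USP47 ranked first, with 40.0% identical residues over 402 aligned, and USP40 came next with 35.1% over 359. USP48, USP9X, USP34, USP24, USP12 and USP46 followed among the tested genes, with between 31.0% and 33.6% identity. All 8 of these genes had a negative fold change, from -1.10 in USP9X to -0.23 in USP46, and 6 passed as lower. Their median was -0.34. The other 36 tested members had a median of -0.062, with 21 negative values and 12 passing as lower. Over all 13895 genes tested, 7038 values were negative and 26.5% passed as lower. The limit of 8 genes was set after the values had been seen, and the contrast is a description with no test.

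Across the 44 genes Spearman's correlation of the alignment score with the fold change was -0.353. The points share the same 6 libraries, and genes are not independent replicates. The 8 closest genes were also longer, with a median exon length of 10769.5 bases beside 6847.5 in the others. With the length correction all 8 values stayed negative and 3 passed as lower, where 25.0% of all genes tested passed as lower. The medians were then -0.23 in the 8 genes and 0.009 in the others. A global alignment ordered the genes differently beyond USP47 and USP40, with USP12 and USP46 at ranks 3 and 4 and USP48 at rank 6. USP34, USP24 and USP9X were at ranks 31, 34 and 35. These ranks count all 77 members, tested or not. Rank 5 was the untested USP18, and ranks 7 to 30 were all untested USP17L genes.

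Of 12 tested enzymes listed as acting on histones, 4 were lower (USP22, USP42, USP44 and USP51) and 0 higher by edgeR, with a median of -0.25. These are 33.3% and 0% of the list, beside 26.5% lower and 23.6% higher over all genes tested. USP22, the catalytic subunit of the SAGA deubiquitinase module that acts on histone H2B, was at 277, 274 and 275 CPM in DMSO and 143, 147 and 131 CPM in FT671. The DMSO libraries differed by less than 3 CPM and lay far above the FT671 libraries. The fall was 0.97 on the log2 scale (SE 0.0713, edgeR adjusted p = 1.66e-07), and the mean CPM fell by 48.9%. The gene (ENSG00000124422.12) lies at chr17:20999596-21043760 (minus strand). USP22 overlaps 2 antisense transcripts on small parts of its exons, ENSG00000263986 over 504 bases (log2 fold change -1.38) and CCDC144NL-AS1 over 394 bases (-0.43).

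USP42, another histone H2B enzyme that also acts on p53, was at 38.2, 36.2 and 39.7 CPM in DMSO and at 19.3, 21.8 and 22.97 CPM in FT671. It fell by 0.81 on the log2 scale (SE 0.108, edgeR adjusted p = 3.31e-05). USP44, linked to H2B and to the spindle checkpoint, was scarce at 6.72, 4.86 and 7.95 CPM in DMSO and 1.56, 2.53 and 3.84 CPM in FT671. It had the lowest fold change of the family, -1.11, with a wide error (SE 0.282, edgeR adjusted p = 0.00476) that rests on between 7 and 97 counts per library. The low-level gene USP51 passed narrowly at -0.69 (SE 0.271, edgeR adjusted p = 0.0468), from 2.98, 2.66 and 2.77 CPM to 1.999, 1.44 and 1.79 CPM, and it lost the call in 13 alternatives, including each fit without 1 library.

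USP16, USP3 and USP21, which remove ubiquitin from histone H2A, did not pass. USP16 was at 0.14 (95% interval -0.11 to 0.38) and USP3 at -0.048 (-0.25 to 0.15). USP21 was above DMSO in all FT671 libraries, with 28.0, 27.8 and 20.7 CPM in DMSO against 30.4, 32.8 and 32.4 CPM, yet missed the threshold (log2 fold change 0.30, edgeR adjusted p = 0.0526). USP11, which like USP7 has been found with Polycomb complexes, was at 66.3, 65.8 and 60.6 CPM in DMSO and at 65.7, 61.2 and 62.8 CPM in FT671, with overlapping groups and a 95% interval of -0.21 to 0.15. MYSM1, a JAMM-type H2A deubiquitinase outside the family and named here after its values were seen, rose from 18.6, 17.3 and 31.1 CPM to 35.8, 41.9 and 43.7 CPM (log2 fold change 0.93, SE 0.175, edgeR adjusted p = 5.65e-04).

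Among the 44 tested members 13 were listed as acting in the cytoplasm, on endosomes or on organelles, a list that is not exhaustive. Of these, 7 were lower (USP9X, USP19, USP34, USP31, USP8, USP38 and USP32) and 1 was higher (USP25) by edgeR, with a median of -0.38. The shares were 53.8% lower and 7.69% higher, where all genes tested gave 26.5% and 23.6%. USP9X, a very large enzyme that stabilises MCL1 among other substrates, was at 117, 107 and 145 CPM in DMSO and 54.6, 59.9 and 56.5 CPM in FT671. No libraries overlapped, and the fall was 1.10 on the log2 scale (SE 0.106, edgeR adjusted p = 1.99e-06). The gene (ENSG00000124486.13) lies at chrX:41085445-41236579 (plus strand). Its near-identical paralog on the Y chromosome was not tested.

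USP19, whose main form is anchored in the membrane of the endoplasmic reticulum, was at 78.5, 79.5 and 70.4 CPM in DMSO and 41.3, 39.9 and 39.7 CPM in FT671. It fell by 0.93 on the log2 scale (SE 0.0899, edgeR adjusted p = 2.09e-06). The gene (ENSG00000172046.19) lies at chr3:49108046-49120938 (minus strand). USP34, which acts on axin in Wnt signalling, was at 127, 121 and 184 CPM in DMSO and 82.2, 86.1 and 88.8 CPM in FT671, with DMSO replicate 3 well above the other controls. The FT671 libraries nevertheless lay below all of them, and the fold change was -0.73 (SE 0.130, edgeR adjusted p = 3.74e-04). USP34 shares 3263 exon bases with AHSA2P on the opposite strand (log2 fold change -0.35).

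USP8, the endosomal enzyme that binds STAM and protects receptors from lysosomal sorting, went from 55.4, 54.8 and 66.7 CPM to 41.5, 35.4 and 40.7 CPM (log2 fold change -0.58, edgeR adjusted p = 5.38e-04). STAM was at 43.9, 50.6 and 63.0 CPM in DMSO and 19.1, 21.3 and 22.6 CPM in FT671 and fell further than its enzyme, by 1.29 on the log2 scale (SE 0.136, edgeR adjusted p = 4.50e-06). The mitochondrial enzyme USP30 lay below DMSO in each FT671 library without passing (log2 fold change -0.30, edgeR adjusted p = 0.0852). USP6NL, the Rab GTPase-activating protein, was at 101, 105 and 114 CPM in DMSO and 56.4, 61.0 and 60.2 CPM in FT671, a fall of 0.84 on the log2 scale (SE 0.0824, edgeR adjusted p = 2.24e-06).

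USP25 (ENSG00000155313.15, chr21:15729982-15880064 (plus strand)) had the largest rise of the family. This enzyme, which acts in protein quality control and in signalling by immune receptors, was at 65.9, 59.0 and 85.8 CPM in DMSO and 99.3, 107 and 100.2 CPM in FT671. The groups did not overlap and the log2 fold change was 0.56 (SE 0.114, 95% interval 0.31 to 0.80, edgeR adjusted p = 0.00108).

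USP14, which trims ubiquitin chains on the 19S particle of the proteasome, was at 90.2, 91.0 and 113 CPM in DMSO and 143, 140.0 and 133 CPM in FT671. The gene (ENSG00000101557.15) was mapped to chr18:158383-214629 (plus strand). It rose by 0.51 (log2, SE 0.0908, edgeR adjusted p = 3.64e-04). UCHL5, the other cysteine protease that binds the proteasome and a member of the UCH family, had a similar log2 fold change of 0.52 (edgeR adjusted p = 1.08e-04). By contrast USP5 and USP13, which take apart free ubiquitin chains, did not pass, with 95% intervals of -0.22 to 0.14 and -0.43 to 0.52. All 4 ubiquitin genes tested were higher by edgeR, where 23.6% of all genes tested were. Their log2 fold changes ran from 0.30 in RPS27A to 0.48 in UBB, with a median of 0.36.

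Of the 5 tested members listed for the spliceosome or nucleolus, 2 were higher and 0 lower by edgeR, or 40.0% higher beside 23.6% of all genes tested. USP39 is a subunit of the tri-snRNP that has lost the residues needed for catalysis, encoded at chr2:85602856-85649283 (plus strand) (ENSG00000168883.20). It was at 167, 157 and 164 CPM in DMSO and 236, 226 and 228 CPM in FT671, and rose by 0.50 on the log2 scale (SE 0.068, edgeR adjusted p = 3.83e-05). This was the smallest p among the members that rose. C2orf68, which shares 203 exon bases with USP39 on the opposite strand, moved the other way (log2 fold change -0.75).

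USP4, which acts on the splicing factor PRP3 together with SART3, was at 58.1, 63.9 and 63.2 CPM in DMSO and 80.6, 82.8 and 85.8 CPM in FT671. It rose by 0.43 on the log2 scale (SE 0.0819, edgeR adjusted p = 5.75e-04), and SART3 did not pass (-0.17, adjusted p = 0.0993). USP15, a close paralog of USP4, missed the threshold at 0.27 (edgeR adjusted p = 0.0668), with 82.8, 78.0 and 113 CPM in DMSO and 104, 114 and 107 CPM in FT671. DMSO replicate 3 lay among the FT671 libraries for this gene. Outside the family PRPF8, the spliceosomal protein with an inactive JAMM domain, fell from 878, 921 and 929 CPM to 528, 537 and 544 CPM (log2 fold change -0.76, SE 0.0648, edgeR adjusted p = 6.17e-07).

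Of 10 tested members listed here for DNA repair and the p53 pathway, 2 were higher (USP4 and USP10) and 4 lower (USP2, USP24, USP42 and USP48) by edgeR. Their median was -0.034. The role lists are not exhaustive, and USP47 was not in this one. At 20.0% and 40.0% of so short a list, these counts were near the 23.6% and 26.5% over all genes tested. USP10, which deubiquitinates p53 and binds the stress granule proteins G3BP1 and G3BP2, was at 149, 148 and 164 CPM in DMSO and 181, 192 and 194 CPM in FT671. It rose by 0.30 on the log2 scale (SE 0.0734, edgeR adjusted p = 0.00361). Of its partners G3BP2 fell by 0.51 on the log2 scale (edgeR adjusted p = 1.94e-04), while G3BP1 was at 0.15 (adjusted p = 0.0948).

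USP2, an enzyme for MDM2 and cyclin D1, was at 41.9, 40.2 and 38.8 CPM in DMSO and 26.6, 21.8 and 26.9 CPM in FT671 (log2 fold change -0.68, SE 0.109, edgeR adjusted p = 1.68e-04). It overlaps USP2-AS1 over 25.2% of its exon length, and that antisense RNA rose by 1.005 on the log2 scale. USP1, the enzyme for FANCD2 and PCNA, was at 52.6, 49.5 and 80.2 CPM in DMSO and 70.2, 72.9 and 69.7 CPM in FT671. Only DMSO replicate 3 lay above the FT671 libraries, and the fold change of 0.25 did not pass (edgeR adjusted p = 0.162). WDR48, the activating partner of USP1, USP12 and USP46, rose by 0.38 and WDR20, which serves USP12 and USP46, fell by 0.37 (both on the log2 scale, edgeR adjusted p = 0.00318 and 0.0197), while none of the 3 enzymes passed.

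**Figure D2:**
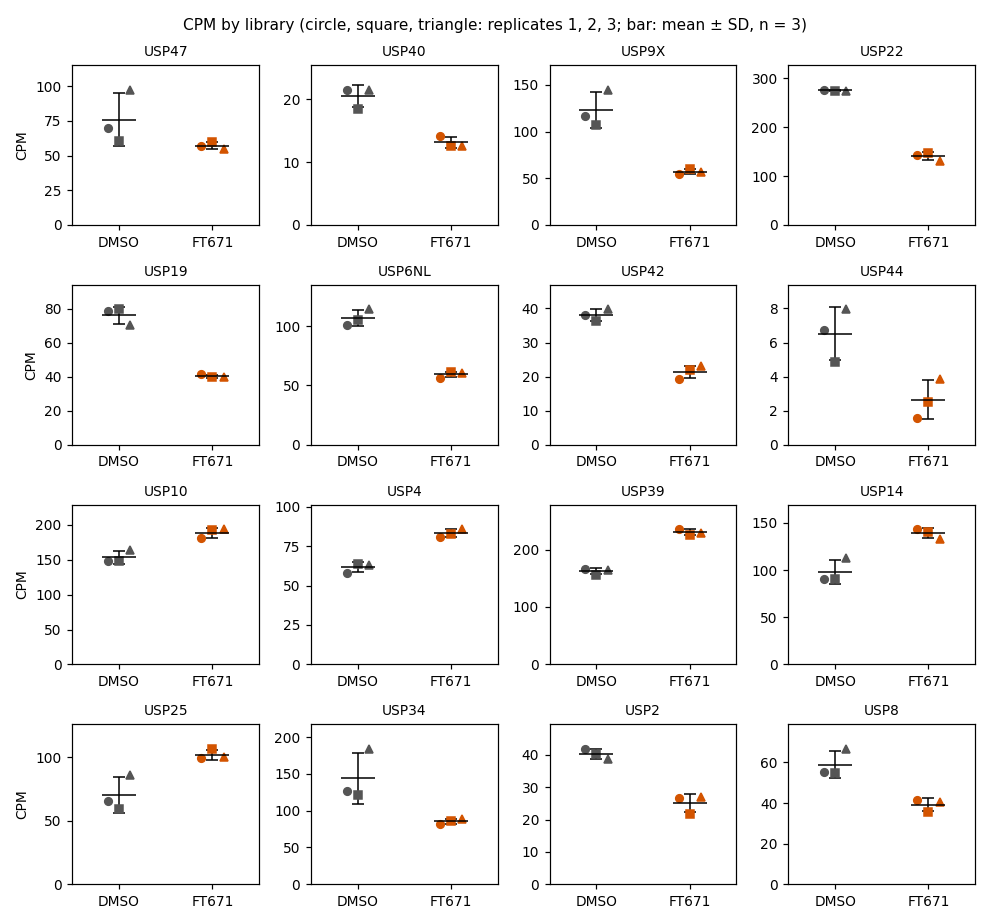
CPM in each library is plotted for 16 USP genes on axes that start at 0, with DMSO in grey, FT671 in orange and symbols for replicates 1, 2 and 3. Horizontal bars give the mean and error bars the SD (n = 3). USP22, USP19 and USP39 are tight in DMSO, whereas DMSO replicate 3 stands above the other controls for USP47, USP34, USP25 and USP9X.

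DMSO replicate 3 was the highest of the 3 DMSO libraries in 25 of the 44 members, or 56.8%, against 41.7% of all genes tested. Without this library 11 of the 44 members were higher and 18 lower, where 25.7% and 27.5% of all genes tested were. The share of higher members was thus near that of all genes in this fit. USP1, USP15, USP16, USP33, USP45, USP49 and USP53 were then called in addition, and USP51 was lost. Within the called set, USP48 also moved from -0.26 to -0.17 (edgeR adjusted p = 0.0366) on this change.

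Of 11 tested cofactors of USP enzymes, 2 were higher (ENY2 and WDR48) and 4 lower (STAM, G3BP2, ATXN7L3 and WDR20), with a median of -0.24. Their shares of 18.2% and 36.4% lay near those of all genes tested (23.6% and 26.5%). Within the SAGA module, ENY2 rose by 0.51 (log2, edgeR adjusted p = 7.57e-04), whereas ATXN7L3, the adaptor that activates USP22, fell by 0.49 on the log2 scale (adjusted p = 0.00258).

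Of 37 tested genes listed as other deubiquitinases, 11 were higher (29.7%) and 10 lower (27%) by edgeR, with a median of 0.014. The list was drawn by family and fold and not by activity, and it holds the inactive PRPF8. It also holds 3 USP-fold genes with other symbols (CYLD, USPL1 and PAN2), of which 2 were lower. The shares over the 37 genes were near the 23.6% and 26.5% of all genes tested. In the JAMM family 6 of 11 were higher and 1 lower, or 54.5% and 9.09%. OTUD6B, an OTU-family enzyme, rose from 22.8, 21.2 and 24.2 CPM to 42.6, 42.8 and 43.7 CPM (log2 fold change 0.93, SE 0.101, edgeR adjusted p = 5.47e-06). The difference between this list and the USP genes was not tested.

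Per kilobase of exon, USP39 and USP22 were the most abundant members in DMSO at 41.1 ± 1.33 and 40.6 ± 0.183 CPM per kb (SD, n = 3), and they did not differ beyond their spread. USP10 at 30.3 ± 1.82 and USP5 at 28.6 ± 1.28 CPM per kb also lay within their spread of one another, and USP20 followed at 21.9 ± 0.538. USP20, an enzyme that acts on HIF-1α, and USP5 did not pass the test and were at 20.9 ± 1.35 and 28.0 ± 2.40 CPM per kb after FT671. USP39 went to 58.2 ± 1.28, USP10 to 37.2 ± 1.41 and USP22 to 20.7 ± 1.21 CPM per kb, so that USP22 dropped from the leading pair to a level beside USP20. USP47 and USP40 were much lower per length, at 5.54 ± 1.41 and 2.19 ± 0.184 CPM per kb in DMSO. The order at the top depends on the length used: per kb of the longest transcript USP39 was at 74.4 and USP22 at 53.03 CPM per kb.

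The 33 members not tested had few or no counts. USP26 and all 26 USP17L genes had 0 counts in every library. Reads that map to several places are left out of STAR's gene counts, so that reads from near-identical USP17L copies could not be counted. The other 6 had at most 10 counts in any library. Among these was USP18, the interferon-induced enzyme that removes ISG15.

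USP transcripts are long, and longer genes lay lower after FT671 across the whole data set. The median exon length was 7439 bases in the tested members and 4743.5 over all genes tested. The median fold change went from 0.12 in the shortest of 10 length bins of all genes to -0.13 in the longest. After a correction for length the members' median was -0.13. Of the 44 tested members 14 were then lower and 10 higher, where 18 and 5 were in the main fit. All genes tested gave 25.0% lower and 26.4% higher with the correction, and 26.5% and 23.6% in the main fit. Both shares of the members thus lay closer to those of all genes with the correction than without it. USP24, USP47, USP48 and USP51 lost their calls and USP15, USP21, USP28, USP33 and USP53 became called as higher. The 4 members past 1e-05 kept values between -0.73 and -0.96.

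The promoters of the members varied widely in CG dinucleotides. Promoter windows of RefSeq (GRCh38.p14, 250 bases before to 50 after the start) were matched for 36 of the 44 tested members, and the 250 bases before the start are shown for a pair of genes that fell (USP22 and USP19) and a pair that rose (USP25 and USP14) so that the composition of opposite responders can be compared. RefSeq starts can lie inside the GENCODE gene, as they do for USP22, USP19 and USP14. All of the bases printed for USP22 are therefore within its GENCODE gene, as are part of those for USP19 and USP14. CG dinucleotides are in capitals and sequences run 5′ to 3′ on the strand of the gene. The windows are chr17:21043012-21043261 (minus strand, USP22), chr3:49120824-49121073 (minus strand, USP19), chr21:15729732-15729981 (plus strand, USP25) and chr18:158307-158556 (plus strand, USP14).
USP22: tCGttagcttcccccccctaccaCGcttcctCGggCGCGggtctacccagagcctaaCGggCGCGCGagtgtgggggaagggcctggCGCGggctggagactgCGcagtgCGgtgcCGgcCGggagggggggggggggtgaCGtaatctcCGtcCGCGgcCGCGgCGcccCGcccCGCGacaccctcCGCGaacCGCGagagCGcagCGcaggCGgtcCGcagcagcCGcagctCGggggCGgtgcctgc
USP19: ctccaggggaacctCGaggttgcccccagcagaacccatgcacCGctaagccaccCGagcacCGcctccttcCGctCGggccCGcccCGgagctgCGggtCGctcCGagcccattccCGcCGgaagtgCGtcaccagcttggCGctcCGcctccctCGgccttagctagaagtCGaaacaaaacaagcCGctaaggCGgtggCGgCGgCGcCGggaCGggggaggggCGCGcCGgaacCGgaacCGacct
USP25: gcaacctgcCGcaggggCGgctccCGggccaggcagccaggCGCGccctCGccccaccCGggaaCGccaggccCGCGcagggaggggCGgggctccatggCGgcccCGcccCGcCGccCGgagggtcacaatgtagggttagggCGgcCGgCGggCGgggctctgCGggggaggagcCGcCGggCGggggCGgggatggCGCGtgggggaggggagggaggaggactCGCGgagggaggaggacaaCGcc
USP14: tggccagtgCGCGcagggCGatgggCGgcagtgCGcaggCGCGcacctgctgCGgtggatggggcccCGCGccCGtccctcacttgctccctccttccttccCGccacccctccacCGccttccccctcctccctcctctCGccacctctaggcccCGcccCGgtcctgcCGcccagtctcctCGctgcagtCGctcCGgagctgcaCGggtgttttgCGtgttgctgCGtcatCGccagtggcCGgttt

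These windows hold 36, 30, 30 and 25 CG dinucleotides. Over the whole windows, with the 50 bases after the start, the median was 35 (range 17 to 49) in the 11 lower members with a promoter, 41 (33 to 42) in the 5 higher members and 30 (0 to 47) in the 20 that did not pass. The promoters of all genes tested had a median of 26 (0 to 69). The CCAAT motif, searched on both strands, was found in 3 of the lower members and 0 of the higher ones, and in 30.6% of the members beside 37.3% of all tested promoters. CACGTG was found in 8.33% of the members beside 10.4%, and the ETS-like CCGGAAG in 27.8% beside 20.3%. A match is only a run of letters in the window.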

How the data were processed

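The RNA-seq libraries were 3 from K562 cells given DMSO and 3 from cells given 10 μM FT671, all for 48 h. From total RNA depleted of ribosomal RNA the authors obtained paired-end reads, which they aligned with two-pass STAR (hg38). They deposited 1 raw count per gene and library, without normalization. The version of STAR, the annotation release and the strand setting are not given in the sources used here. Symbols, positions and exon properties came from GENCODE release 44, in which 60295 of the 60609 gene identifiers were found.

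Counts were analysed with R 4.3.3 and edgeR 4.0.16. The filter on low counts was filterByExpr, which left 13895 genes. After TMM scaling the groups were compared by the quasi-likelihood test without covariates, with Benjamini-Hochberg adjustment over all genes tested. Thresholds were 0.05 and 1e-05, the latter from the study's methods. Standard errors are the log2 fold change divided by the square root of F. The steps were tested on simulated counts with known fold changes. P-values measure the spread between these 6 libraries.

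Alternatives were DESeq2 1.42.0 (Wald test and size factors), library totals alone, no filter, at least 10 counts in every library, loess corrections (span 0.3) for gene length or GC content, a replicate block, thinning, protein-coding genes alone and leaving out each library. Proteins were translated from GENCODE transcripts and aligned with Biopython 1.88 (BLOSUM62, gap penalties 11 and 1).

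The members and the role lists were chosen with earlier results of these data known, so no test was made over a list. Genes named with full values were USP47, USP40, members past 1e-05, the 8 highest and 8 lowest members called without overlap between groups, the 5 most abundant per kb, cofactors or other deubiquitinases past 1e-05, and USP7. Other members are given within their role lists.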

Additional observations from a re-analysis of the deposited data

How the results depend on the processing

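The members called lower numbered 14 to 19 under every alternative, and the median log2 fold change of all tested members lay between -0.30 and -0.13. In the same direction in each of the 18 settings, 12 members were lower (USP2, USP6NL, USP8, USP9X, USP19, USP22, USP32, USP34, USP38, USP40, USP42 and USP54) and 5 higher (USP4, USP10, USP14, USP25 and USP39). The 5 members called higher became 10 with the gene length correction, 10 with that correction and the replicate block, 9 with the GC correction and 9 with the GC correction and the replicate block, and 5 to 11 with a library left out (11 without DMSO replicate 3). Over all genes tested, 26.4% were higher with the length correction, 28.5% with the GC correction and 25.7% without DMSO replicate 3. The share of higher members lay closer to that of all genes in these fits than in the main fit. With the length correction the share of lower members did so too, at 14 of the 44 tested members beside 25.0% of all genes. The 4 members past 1e-05 became 8 by DESeq2's Wald test, 11 without a filter, 8 with the length correction and the replicate block, 9 with the GC correction and 0 to 10 with a library left out. It was 0 by edgeR without FT671 replicate 3, where 22 members had an unadjusted p under 0.05. The cause of these changes was not tested. Fits that leave out a library also have fewer samples.

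The USP47 fold change was -0.25 with the length correction (adjusted p = 0.0775) and -0.53 to -0.21 with a library left out. The count of other deubiquitinases that were lower was 6 to 10 with a library left out, lowest without FT671 replicate 3. USP20 turned to 0.00587 with the length correction and replicate block, 0.0128 with the GC correction and 0.0101 with the GC correction and replicate block. USP5 turned to 0.0375 and 0.0378 with the GC correction without and with the block, and -0.101 to 0.0208 with a library left out, above 0 without DMSO replicate 2 (0.00432) and without FT671 replicate 3. Neither gene was called in any of these. Of 358 alternatives for the named single genes other than USP47, 338 kept direction and call, 13 lost the call (all USP51) and 7 turned.

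With the replicate block, 7 members were higher and 17 lower, USP15 and USP21 were gained and USP51 was lost. For libraries with the same number, the correlations of their deviations from the group means were 0.115, -0.0605 and 0.14 for numbers 1, 2 and 3. The value for number 3 was the highest of any pair. DMSO replicate 2 correlated better with FT671 replicate 1 (0.125) than with its own number. These values do not settle whether libraries with the same number share more than that number. At 4555220 to 14250500 counts, members under 3 counts per library were not detectable.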
